A study of Caenorhabditis elegans with 2 samples.

Results

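Small nucleolar RNA (snoRNA) genes were examined as a class of CEH-88 binding sites in Caenorhabditis elegans. The members were all 346 genes of biotype snoRNA in Ensembl release 115 on the 6 nuclear chromosomes, out of 46890 annotated genes of all kinds. Each gene was extended by 250 bp on both sides, and this stretch is called its locus. Of the genes, 183 lay wholly inside a protein-coding gene of the same strand (the host) and 163 lay outside any such gene. A locus was called bound when a peak summit of the deposited list of the whole series lay in it. The annotation alone set the members, and no measured value entered the rule. The class itself was chosen with earlier results of these data known.

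CEH-88 is a homeobox protein. Chromatin immunoprecipitation and sequencing (ChIP-seq) had been performed with an anti-GFP antibody on whole L1 larvae, aged 6 h and starved after bleaching. The strain, OP593, carries the transgene wgIs593, which holds ceh-88 fused to TY1, EGFP and 3xFLAG together with unc-119(+), in an unc-119(tm4063) background, so the protein recovered was the tagged copy made from an inserted transgene. There were 2 biological replicates of this 1 group, with chromatin sheared to 200 to 800 bp. No control sample was analysed here, so at these loci binding by CEH-88 cannot be told apart from DNA that any pull-down would recover. Whole larvae mix all cell types, and read depth is unknown.

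SnoRNAs guide the chemical modification of ribosomal RNA and other RNAs in the nucleolus. Box C/D snoRNAs direct the methylation of ribose, and box H/ACA snoRNAs direct the change of uridine to pseudouridine. Many are cut from the introns of a host gene, while others are made from promoters of their own. RNA polymerase III genes such as tRNA genes carry promoter elements called the A box and the B box, and small nuclear RNA (snRNA) genes of animals carry a proximal sequence element ahead of the start, to which the complex SNAPc binds.

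The sequence ahead of some of the strongest bound genes is shown first, since most of the bound loci shared a small set of words there. The stretches run from 150 bases before the annotated gene start to 30 bases after it, 5′ to 3′ on the strand of the snoRNA gene, from the RefSeq copy of WBcel235. They belong to loci of both host classes with strong peaks, with T10B9.11 and M106.6 added as bound loci with a B box. Not shown here are F59C6.15, F25H2.15, Y37E3.20 and F39B2.14, which were also among the 8 strongest. The stretch of C51F7.4 overlaps that of C51F7.3 and is left out. Capitals mark matches to the words described below. In the first 3 they mark the upstream pair, which is AACNNG, 5 bases of any kind, then TGTCNG, read on the strand of the gene, and in F09G2.14 they mark the same pair on the opposite strand.
Y53F4B.47: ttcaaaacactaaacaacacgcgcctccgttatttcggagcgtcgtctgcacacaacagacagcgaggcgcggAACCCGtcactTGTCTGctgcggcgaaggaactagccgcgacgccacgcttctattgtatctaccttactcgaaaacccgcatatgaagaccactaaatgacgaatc
T26A8.6: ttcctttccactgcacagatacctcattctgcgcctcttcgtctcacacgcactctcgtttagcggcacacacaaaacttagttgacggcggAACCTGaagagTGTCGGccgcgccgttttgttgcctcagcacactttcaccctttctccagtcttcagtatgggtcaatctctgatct
ZK994.7: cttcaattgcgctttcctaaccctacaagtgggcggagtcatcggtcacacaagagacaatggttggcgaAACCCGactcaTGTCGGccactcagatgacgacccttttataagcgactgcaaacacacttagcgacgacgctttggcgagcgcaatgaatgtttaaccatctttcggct
F09G2.14: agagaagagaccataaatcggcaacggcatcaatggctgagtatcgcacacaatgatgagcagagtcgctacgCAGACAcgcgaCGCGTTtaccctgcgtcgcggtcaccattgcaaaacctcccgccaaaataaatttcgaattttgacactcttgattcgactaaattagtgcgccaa
These stretches lie at chrII:15025864-15026043, chrIV:8428710-8428889 and chrV:7196551-7196730 on the minus strand and at chrV:8500429-8500608 on the plus strand. In the next 3 the capitals mark the A box (TGG, 3 bases, A, 1 base, TGG), where there is one, followed by the B box (GTTCNANNC). C51F7.3 has no A box match and has a pair of B box matches.
T10B9.11: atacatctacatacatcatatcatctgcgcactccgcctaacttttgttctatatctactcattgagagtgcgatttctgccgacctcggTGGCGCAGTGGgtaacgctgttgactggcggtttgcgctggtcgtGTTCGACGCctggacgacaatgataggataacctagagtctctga
M106.6: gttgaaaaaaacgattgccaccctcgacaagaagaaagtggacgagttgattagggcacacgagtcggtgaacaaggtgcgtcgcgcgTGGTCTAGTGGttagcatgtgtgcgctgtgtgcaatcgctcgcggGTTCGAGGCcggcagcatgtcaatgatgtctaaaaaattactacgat
C51F7.3: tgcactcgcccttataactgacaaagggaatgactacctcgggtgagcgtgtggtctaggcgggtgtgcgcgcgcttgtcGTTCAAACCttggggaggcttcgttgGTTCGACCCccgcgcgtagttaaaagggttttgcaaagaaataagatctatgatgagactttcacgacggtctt
They lie at chrII:9774805-9774984 on the minus strand and at chrII:10840167-10840346 and chrV:12303558-12303737 on the plus strand. In the last pair, from loci with some of the strongest peaks of all, none of these words was found. Their summits, 208 bp and 242 bp before the genes, lie upstream of the stretches.
W06H8.17: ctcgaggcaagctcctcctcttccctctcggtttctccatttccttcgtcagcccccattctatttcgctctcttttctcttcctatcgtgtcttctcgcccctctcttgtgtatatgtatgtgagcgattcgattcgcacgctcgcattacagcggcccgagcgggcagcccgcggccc
F54E7.10: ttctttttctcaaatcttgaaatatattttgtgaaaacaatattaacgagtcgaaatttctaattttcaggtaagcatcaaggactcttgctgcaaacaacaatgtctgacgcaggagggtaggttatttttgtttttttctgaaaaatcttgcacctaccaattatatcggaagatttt
They lie at chrV:6227521-6227700 on the minus strand and at chrIII:5679228-5679407 on the plus strand.

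CEH-88 peaks lay at a minority of the snoRNA genes. Of the 346 loci, 49 were bound, or 14.2% (exact Clopper-Pearson 95% interval 10.7 to 18.3), beside 3.0% of the loci of all annotated genes and 4.57% of protein-coding gene loci taken in the same way. Of all tiles of the genome as long as the median snoRNA locus, 0.81% held a summit. Loci of tRNA genes held a summit in 12.9% of 612 cases (interval 10.4 to 15.8) and loci of snRNA genes in 16.3% of 129 (10.4 to 23.8), so the intervals of the 3 small RNA classes overlapped. MicroRNA gene loci were at 3.07% (8 of 261). Intervals here and below cover only the counting of loci, which are not replicates. Since longer genes make longer loci, the comparison was repeated with windows of 300 bases around the start (250 before and 50 after), in which a summit was found for 12.7% of snoRNA, 10.8% of tRNA, 13.2% of snRNA and 2.46% of protein-coding genes.

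Loci outside a host were bound more often than loci inside one. The outside class had 32 of 163 bound (19.6%, interval 13.8 to 26.6) and the inside class 17 of 183 (9.29%, interval 5.51 to 14.5). The intervals overlap slightly, and the difference was not tested, since loci are not replicates. The background ran the same way in these places, with a summit in 0.375% of tiles wholly within protein-coding genes and in 0.862% of tiles touching none. Of the inside loci, 14 of 143 that lay in an intron and 3 of 40 that overlapped an exon of the host were bound. Of the outside loci, 26 of 129 with no protein-coding gene over them were bound (20.2%), as were 6 of 33 that lay inside a gene of the opposite strand (18.2%).

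Short snoRNA genes were bound more often than long ones. Of the 93 genes under 100 bp, 27 were bound (29.0%, interval 20.1 to 39.4), against 12 of 142 genes of 100 to 149 bp (8.45%, 4.44 to 14.3) and 10 of 111 genes of 150 bp or more (9.01%, 4.41 to 15.9). The median length was 88 bp for bound and 132 bp for other members. The order held within both host classes: inside a host, 20.8% of 48 short genes and 5.19% of 135 longer ones were bound, and outside, 37.8% of 45 and 12.7% of 118. These length limits were chosen after the values were seen. Boxes could be read in a minority of the annotated genes. The letters of a box C/D snoRNA (TGATGA near the start and CTGA near the end) were in 15 genes, of which 6 were bound (40.0%, interval 16.3 to 67.7). ACA near the end, as in box H/ACA snoRNAs, was in 91 further genes, of which 11 were bound (12.1%, 6.19 to 20.6), and 32 of the 240 genes with neither were bound.

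**Figure D1:**
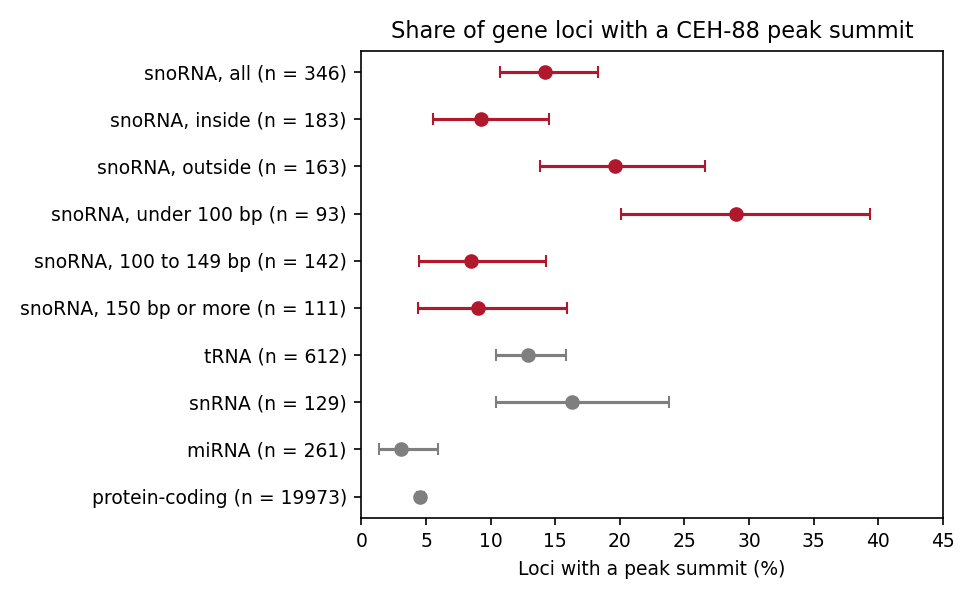
Share of loci (x axis, %) with a peak summit, for snoRNA loci in all, by host class and by gene length (red), and for other gene classes (grey); points are shares and bars exact 95% intervals over loci. Short snoRNA genes stand highest at 29.0%, and protein-coding genes are at 4.57%.

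Within the loci, most summits lay just before the gene start. In 39 of the 49 bound loci the strongest summit was upstream of the gene, in 8 within it and in 2 downstream, and in 32 it lay in the 100 bp just before the start, against 7 in the 150 bp before those. The median position of the nearest summit was 40 bp upstream (-40, quartiles -75 and -11). It was -42.5 for the outside and -33 for the inside class. Summits also gathered near the start of other small RNA genes. From -100 to -51, -50 to -1 and 0 to 49 bp, tRNA genes had 9, 31 and 21 summits and snRNA genes 3, 8 and 6. The call itself keeps a summit close to the snoRNA gene, so that it was nearer to the snoRNA start than to any protein-coding start in 45 of 49 loci is partly set by the rule. In 24 it was more than 1000 bp from any protein-coding start. A promoter window of a protein-coding gene (1000 bp before to 200 bp after a start) held 19 of the 49 summits. The same shares over all 1349 peaks of the list are not given here, so these counts are a description only. The deposited regions limit the resolution of summit positions: 46 of the 52 distinct peaks were 396 bp wide with the summit at their middle within 1 bp.

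**Figure D2:**
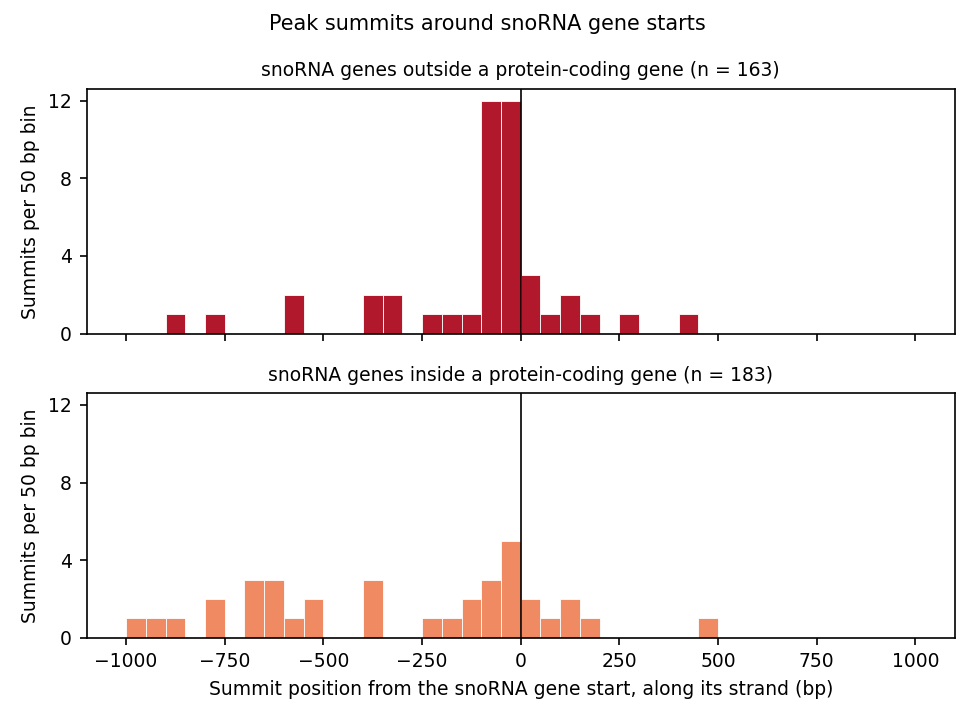
Number of peak summits in bins of 50 bp (y axis) by position from the start of the snoRNA gene along its strand (x axis, bp), for genes outside (top) and inside (bottom) a protein-coding gene of the same strand; a summit near several starts counts at each. Outside a host, 12 summits lie in each of the bins just before the start; inside, 5 and 3 do.

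Many peaks at snoRNA genes inside hosts lay far from the host's own start. In 12 of these 17 loci the summit was over 1000 bp from every annotated transcript start of the host, by 1155 bp to 16047 bp, and in 11 it was over 1000 bp from any protein-coding start. In all 15 loci whose summit fell within the host it was in an intron. C51F7.3 and C51F7.4, which share a peak, are counted separately here. The call itself keeps a summit close to the snoRNA gene, so its distance from the host's start is largely set by where that gene lies. How many of all inside snoRNA genes lie as far from a host start is not given here, so these counts are a description only. The summit at M106.6 was 16047 bp into mix-1, which encodes a subunit of condensin and of the dosage compensation complex, and 24 bp before the snoRNA. The summit at ZK994.7 was 5661 bp into pxn-1, a peroxidasin gene, and 29 bp before the snoRNA. The other 5 loci had a transcript start of the host within 1000 bp of the summit. At Y37E3.20 the summit was 384 bp before such a start of pcyt-2.1 and 47 bp before the snoRNA, and at Y71F9AM.7 it was 285 bp past a start of cogc-3 and 123 bp past that of the snoRNA. At F54E7.10 the summit was 162 bp before rps-12, which encodes a small ribosomal subunit protein, 131 bp before ska-3 on the other strand and 242 bp before the snoRNA. At F39B2.14 it was 41 bp before tmem-107, a gene of a ciliary membrane protein, and 102 bp before the snoRNA.

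Genes of ribosomal proteins held 19 of the inside snoRNA genes, of which F54E7.10 alone was bound (5.26%, interval 0.133 to 26.0), beside 16 of 164 in other hosts (9.76%, 5.68 to 15.4). These intervals overlap widely. The host with the most members, nol-56, which encodes a core protein of box C/D particles, held 4, and none was bound. Of 23 hosts with at least 2 members, 2 had a bound one: frm-7, a FERM domain gene, with both members bound by 1 shared peak, and rps-12.

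The deposited signal value, the authors' measure of peak strength with no stated scale between lists, was highest at F59C6.15 on chromosome I. It was 785 in the list of the whole series, 451 in replicate 1 and 334 in replicate 2, which put the peak at rank 6 of 1349, at rank 10 and at rank 9 in these lists. The peak was at chrI:10517096-10517349, with the summit 65 bp before the gene and 787 bp from the nearest protein-coding start. F54E7.10 followed with 387 (245 in replicate 1 and 144 in replicate 2), from a peak at chrIII:5679034-5679232, and F25H2.15 had 381 (216 and 163). Outside a host, W06H8.17 had 350 (248 and 111) at chrV:6227696-6227796 and Y53F4B.47 had 326 (203 and 128) at chrII:15025899-15026043. Replicate 1 gave the higher value at each of these 5 loci, and all 5 were past the authors' threshold in both replicates.

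Inside hosts the next values were lower. Y37E3.20, in an intron of pcyt-2.1, an enzyme gene of phospholipid synthesis, had 226 (149 in replicate 1 and 89.7 in replicate 2). ZK994.7 had 222 at chrV:8500352-8500747, and here replicate 2 was the higher, with 134 against 88.3. F39B2.14 had 170 (113 and 68.6). C51F7.3 and C51F7.4, which are neighbours in frm-7, shared a peak of 164 (98.9 and 59.8), so they are 1 measurement. C16D9.11, in rol-3, a receptor tyrosine kinase gene, had 131 with almost equal replicate values of 60.2 and 64.9. F01D5.12, in F01D5.10, had 125 (72.3 and 54.6), and W04D2.7, in the innexin gene inx-11, had 123 (59.2 and 71.2).

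Outside hosts the remaining 7 loci among the 20 strongest had series values between 125 and 169. F09G2.14 had 169 (109 in replicate 1 and 63.0 in replicate 2), T26A8.6 had 161 (103 and 52.6) and T02E1.9 had 158 (110 and 58.0). D2021.6 had 139 (98.9 and 47.1), ZK20.9 had 128 (103 and 46.9), C07A9.14 had 128 (70.5 and 52.3) and T10B9.11 had 125 (81.5 and 37.5). Of these, T26A8.6, D2021.6, ZK20.9, C07A9.14 and T10B9.11 were bound in the list of replicate 1 but not in that of replicate 2.

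**Figure D3:**
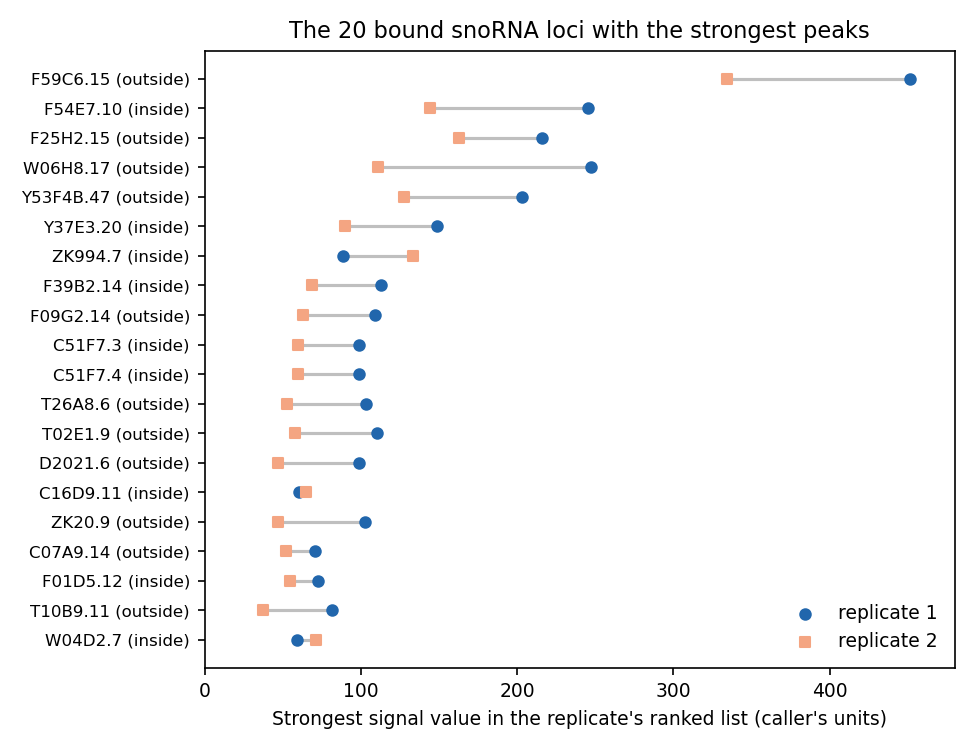
Strongest signal value (x axis, in the caller's units) in each replicate's ranked list at the 20 bound snoRNA loci with the strongest peaks, ordered by the series value; circles are replicate 1 and squares replicate 2. F59C6.15 stands apart at 451 and 334, and replicate 2 is the higher only at ZK994.7, C16D9.11 and W04D2.7.

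Peaks at snoRNA genes were about as strong as the other peaks of the list. The 52 distinct peaks had a median signal of 107.6 against 106.4 over all 1349 peaks, and 28 of them were at or above that median. Medians were 123.2 for the bound loci inside and 108.9 for those outside a host. At 4 loci there was a pair of summits. ZK20.9 had its stronger summit at -68 bp (128) and another at 140 bp (35.6), and F30H5.4 had them at -17 bp (115) and 184 bp (5.35). T06D8.11 had them at -33 bp (78.9) and 184 bp (10.5), and F07A11.15 at 67 bp (76.0) and 275 bp (19.4). The peaks of each pair overlapped, and the weaker summit was the more downstream at all 4.

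The replicates differed in how many snoRNA loci passed the threshold. Replicate 1 had 42 bound, or 12.1% of the members, where 2.5% of the loci of all genes were bound in that list. Replicate 2 had 28, or 8.09%, where 1.65% of the loci of all genes were bound. Both lists had 21 of these loci, which is 50% of those of replicate 1 and 75% of those of replicate 2. All 21 were also in both lists of the whole series. The list called conservative had 53 bound loci (15.3%, where 2.68% of the loci of all genes were bound), of which 44 were among the 49, and 64 loci were bound in at least 1 of the 4 lists. Of the 49, 9 passed in neither replicate on its own. Replicate 2 had 13 inside and 15 outside loci, nearly even, where replicate 1 had 13 and 29. In replicate 2 alone 9.2% of outside loci (interval 5.24 to 14.7) and 7.1% of inside loci (3.84 to 11.8) were bound, a smaller difference than in the series list.

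The ranked lists, which also hold regions below the threshold, cover much of the genome, with a region touching 57.5% of tiles of 630 bp in replicate 1 and 65.5% in replicate 2. Each of the 49 bound loci had a region in both ranked lists, with medians of 66.7 in replicate 1 and 47.9 in replicate 2. Of the 297 other loci, 209 had a region in replicate 1 and 221 in replicate 2, or 70.4% and 74.4%, and 33 loci had none in either. The strongest region at these loci had a median of 19.2 and 16.8, beside 14.8 and 13.7 over the tiles with a region. This difference was not tested. As a description across bound loci, which come from the same 2 libraries, Pearson's r of the log2 values was 0.682 and Spearman's rho 0.499 (n = 49). Across the 166 other loci with both values r was 0.244 and rho 0.305. The bound call comes from a list thresholded by the irreproducible discovery rate. The higher values and closer replicates at bound loci are therefore partly set by the call. C51F7.3 and C51F7.4, which share a peak, count separately among the 49. The log2 ratio of replicate 1 to replicate 2 had a median of 0.67 and an SD of 0.64 over the bound loci, beside 0.42 and 0.69 over 1308 peaks of the series, and replicate 1 was the higher at 41 of 49.

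The extremes of this ratio mark the loci on which the replicates disagreed. ZK643.9 had 78.4 in replicate 1 and 9.74 in replicate 2, a log2 ratio of 3.01. M106.6 had 90.7 and 28.9 (1.65), and T08B6.64 had 58.7 and 24.1 (1.28). At the other end F12F6.11 had 31.1 and 47.9 (-0.62), T06C12.16 had 25.9 and 38.3 (-0.57) and ZK994.7 had 88.3 and 133.5 (-0.60). Since the median ratio was 0.67, the 3 lowest ratios lie farther from it than those of M106.6 and T08B6.64. The value of ZK643.9 in replicate 2 was below 11.1, the median over all regions of that ranked list.

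**Figure D4:**
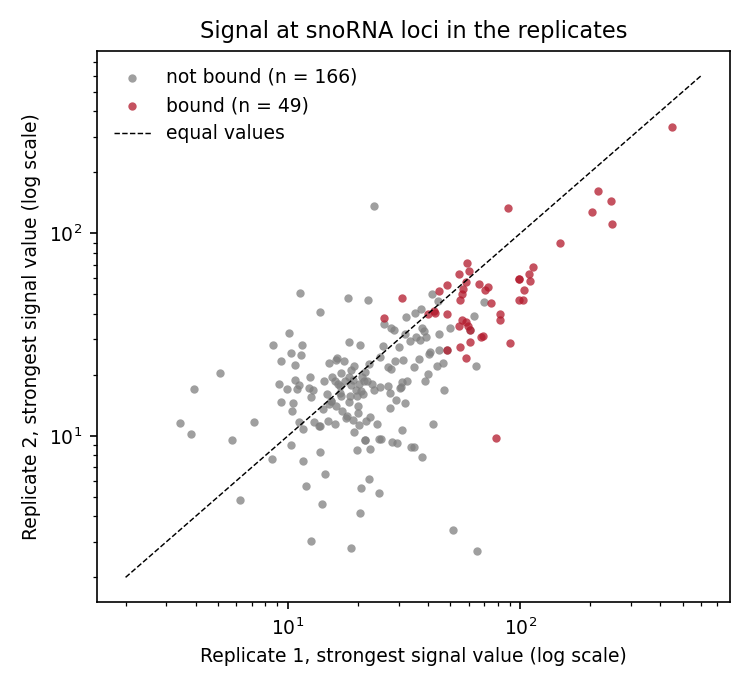
Strongest signal value at each snoRNA locus in replicate 1 (x axis) and replicate 2 (y axis), both on log scales, for bound (red) and other (grey) loci with a region in both ranked lists; the dashed line marks equal values. Bound loci lie to the upper right, 41 of 49 below the line, and ZK643.9 is the red point at 9.74 in replicate 2.

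Some loci that were not called had values within the range of the called ones. smy-2, in an intron of C33A12.3, had 69.8 in replicate 1 and 45.8 in replicate 2, and was in the conservative list and that of replicate 2. R166.7, in mnk-1, a MAP kinase-interacting kinase gene, had 44.1 and 46.6, and was in the conservative list and that of replicate 1. C05H8.3, which lies inside ckk-1 of the other strand, had 41.9 and 50.2, was in the conservative list, and missed the threshold of 830 in the series list with a score of 793. F20D12.10 had 63.0 and 39.1 from a region of score 1000 that reached into the locus. Its summit lay outside the locus, as at all 6 unbound loci whose strongest region in the series list scored at least 830. The lowest score at a bound locus was 881.

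Most bound start windows held 1 of the words shown in the printed stretches. A start window ran from 250 bp before to 50 bp after the gene start, and both strands were searched. The upstream pair and the A box were spelled after the bound windows had been read, so their shares in bound windows are not independent of that reading. The pair was in 18 of 49 bound windows (36.7%), in 18 of 297 windows of other snoRNA genes (6.06%), in 0.35% of protein-coding windows and in 0.528% of tiles of 300 bp of the genome. The B box, whose letters are textbook ones, was in 30.6% of bound windows (interval 18.3 to 45.4), 16.2% of other snoRNA windows (12.2 to 20.9), 8.74% of protein-coding windows and 10.6% of tiles. The first 2 intervals overlap slightly. The stricter form of the B box, GTTCGANNC, was in 18.4%, 6.06%, 1.58% and 2.3% of these sets in the same order. The A box was in 26.5%, 9.09%, 3.25% and 3.78%. A narrower textbook spelling of the A box (TGGC, 2 bases, then AGTGG) was in 10.2%, 3.03%, 0.15% and 0.287%.

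The pair and the boxes rarely met in a window. They occurred together in 2 of 346 members, and at least 1 of the 3 was found in 37 of 49 bound windows (75.5%) and in 80 of 297 others (26.9%), against 11.9% of protein-coding windows and 14.1% of tiles. Read the other way, 18 of 36 members with the pair were bound (50%, interval 32.9 to 67.1), as were 21 of 83 with an A or a B box (25.3%, 16.4 to 36.0), 31 of 310 without the pair (interval 6.9 to 13.9) and 12 of 229 with none of these words (5.24%, 2.74 to 8.97). Of pair members inside a host 8 of 13 were bound, and of those outside 10 of 23. Since the pair and the A box were spelled after the bound windows had been read, these bound shares are not independent of that reading. Their intervals do not allow for it. The pair was also seen in windows of snRNA genes, which were not read to spell it. It was in 8 of 21 bound (38.1%, interval 18.1 to 61.6) and 14 of 108 others (13.0%, 7.27 to 20.8), and these intervals overlap slightly. It was in 0.327% of tRNA windows, where the A box stood in 44.4%. Whether the pair is the proximal sequence element of snRNA genes was not tested.

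The pair stood mostly at a narrow range of distances from the gene start. So did the A box on the gene's strand at bound loci, apart from T08B2.13, while the B box had a wider range. Matches on the opposite strand are left out of the values below. At bound loci they were the A box of K07C10.2 at -114 bp and the pair at F09G2.14 (-69 bp) and Y71F9AM.7 (2 bp). On the strand of the gene, the middle of the pair lay between -72 and -46 bp in 16 bound loci, with a median of -50. In the loci that were not bound the median was -51, and 18 of 19 matches lay from -75 to -45 bp, with the other at -196 bp. The A box had a median of -55 bp in bound loci (range -147 to -47) and of -51.5 bp in others (-162 to 29). The match at -147 bp was that of T08B2.13, and the other A box matches on this strand at bound loci lay from -64 to -47 bp. The B box had a median of -12.5 bp (-214 to 43) and of -8.0 bp (-241 to 44). Of the 17 members with an A and a B box on the gene's strand, 16 had their first bases 43 to 45 bp apart, 6 of them bound and 10 not. Both boxes began ahead of the annotated gene start in these 16, with the first base of the A box between -68 and -50 bp. At bound loci the summit was a median of 24.5 bp from the middle of the pair, 35.0 bp from that of the A box and 39.0 bp from that of the B box, all within the resolution of the regions.

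**Figure D5:**
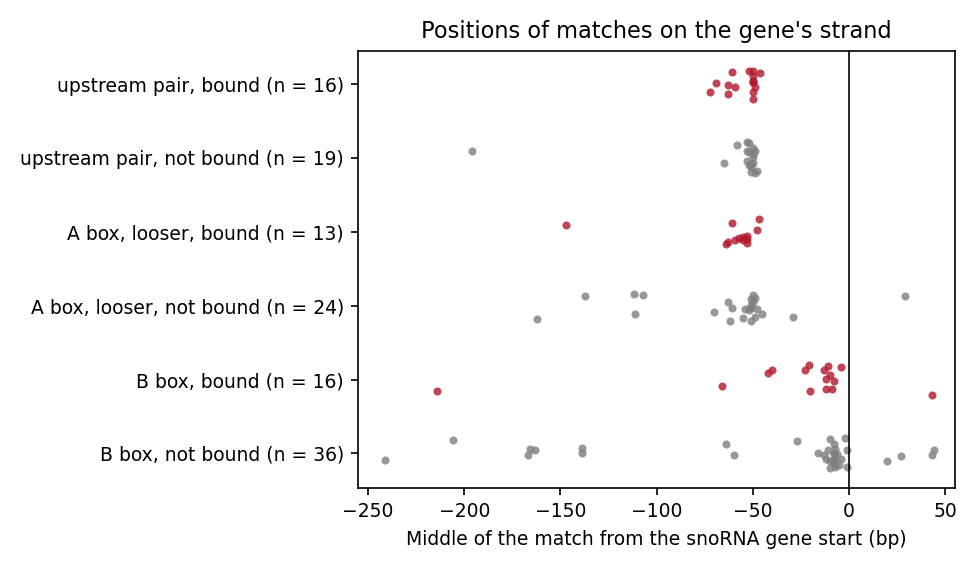
Position of the middle of each match on the gene's strand from the snoRNA gene start (x axis, bp) for the upstream pair, the A box and the B box, in bound (red) and other (grey) loci; points are matches, spread vertically for legibility. The pair lies mostly near -50 bp in bound and unbound loci, and the B box mostly near -10 bp.

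Loci with the pair included the strongest peaks. Their peak signal had a median of 126.7 and ran from 78.9 to 785. Bound loci with an A or a B box had a median of 94.1 and a highest value of 169. That value was from F09G2.14, which also held the pair, so it and Y71F9AM.7 are in both groups. The next highest value with a box was 164, at the peak shared by C51F7.3 and C51F7.4. The pair was spelled after the windows of these bound loci had been read, so the comparison of pair and box loci is not independent of that reading. The 2 highest values with the pair, 785 and 381, came from F59C6.15 and F25H2.15, which are copies of 94.9% identity. Of the 20 strongest loci 11 had the pair, 5 a B box and 5 none of the words. C51F7.3 and C51F7.4, with a shared peak and a shared B box match, are counted separately here and in the B box share of bound windows. The 12 bound loci with none had a median of 116.3 and included F54E7.10 and F39B2.14, whose summits lay at host promoters, and W06H8.17, whose summit was 208 bp before the gene. The 18 members with the pair that were not bound had medians of 16.9 and 14.6 in the replicates, close to those of other unbound members (19.7 and 16.9).

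Words that homeodomain proteins commonly recognise were not more frequent at bound loci. TAATTA was in 10.2% of bound and 10.8% of other snoRNA windows, against 15.5% of protein-coding windows and 13.6% of tiles. ATCGAT, a word of cut-class homeodomains, was in 4.08%, 11.4%, 12.3% and 9.45%. By host class TAATTA ran in opposite ways. Outside hosts it was in 15.6% of bound windows (interval 5.28 to 32.8) and 6.11% of others (2.67 to 11.7). Inside hosts it was in 0 of 17 bound windows (0 to 19.5) and 14.5% of others (9.49 to 20.7). The intervals overlap in both classes. Runs of 6 T were in 38.8% of bound windows, 63.3% of other snoRNA windows, 80.1% of protein-coding windows and 73.5% of tiles, and the start windows had a median G and C content of 43.3% when bound and 40.3% when not.

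Near copies complicate some of the strongest values. Of the 346 genes, 21 had another member of at least 80% identity, in 18 pairs, and 7 of these 21 were bound (33.3%, interval 14.6 to 57.0) beside 42 of 325 without a copy (12.9%, 9.47 to 17.1). The largest group had 5 members with identities of 84.8% to 97.1%, all with the upstream pair. Those bound were F59C6.15, F25H2.15 and Y67A10A.14. The last had 66.7 in replicate 1 and 56.3 in replicate 2. T19C4.11 had 11.3 and 50.7 and passed in replicate 2 alone, and F43A11.8 had 13.7 and 11.2. How reads that match several places were treated is not given in the sources used here, so values at these copies are uncertain. ZK643.9, the locus of the highest ratio, also had a copy of 94.7% identity, K09E9.5, with 21.0 and 16.1 and no call.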

How the data were processed

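ChIP-seq peak lists on assembly ce11, per the labels, were the starting point. Lists of the whole series and of each replicate were deposited as ranked and thresholded by the irreproducible discovery rate (IDR), per the deposited file listing. The score column deposited by the authors follows the IDR on a log scale up to 1000, and no thresholded peak scored under 830. The signal column deposited by the authors is the strength of each region, with no stated scale between lists. The summit position deposited by the authors is counted from the region's start. The sources used here do not name the aligner, the caller or their versions, nor say how the series list was built.

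From these, a locus was the gene with 250 bp on both sides, bound when a summit of the series thresholded list lay in it. A replicate's value was the strongest region of its ranked list touching the locus by at least 1 bp. Genes came from Ensembl release 115 and sequence from the RefSeq copy of WBcel235, the same assembly. Words were sought on both strands. No test was run: 1 group of 2 replicates with no control allows none, and shares carry exact Clopper-Pearson 95% intervals. Named loci were the 20 strongest bound, up to 6 strongest per host class, the 3 highest and 3 lowest replicate ratios, the 4 strongest unbound by the lower replicate value and loci with at least 2 summits; other loci named, among them copies, were chosen after their values were seen. Members, words and lists were chosen with earlier results of these data known. Peak list, flank, overlap rule, score, host class and nearness to other small RNA genes were varied. Python 3.11.15, pandas 2.3.3, numpy 2.4.6 and scipy 1.17.1 were used, and the scripts were tested on simulated data. A result at another bound locus inside a host is not reported here.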

Additional observations from a re-analysis of the deposited data

How the results depend on the processing

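With replicate 1 or replicate 2 left out, the number of bound snoRNA loci ranged from 28 to 42, inside loci from 13 to 13, outside loci from 15 to 29, distinct peaks from 27 to 41 and the median summit position from -60.5 to -34 bp. The lower counts came without replicate 1, and the share of genes under 100 bp that were bound was then 15.1%, against 22.6% without replicate 2. The share of members with the upstream pair that were bound ranged from 36.1% to 41.7%. The pair and the length limit were chosen after the data were seen. The B box share over all members moved from 18.2% to 28.6% when the whole locus was searched and to 7.8% with the stricter letters GTTCGANNC. The other 58 of 65 alternative values moved by less than 1.5 times or stayed within the main value's interval, and none changed sign. They include the values without loci near tRNA, snRNA or rRNA genes. No member lay near such a gene, so these values could not move. The causes of the moves were not tested. No paired analysis was possible because there was 1 group of 2 replicates. Read depth, and with it the error of each signal value, is unknown.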

Other observations

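Bound members numbered 14 of 71 on chromosome II (19.7%, where 4.53% of the loci of all genes there were bound), 10 of 55 on V (18.2%, 2.68%), 10 of 74 on I (13.5%, 6.61%), 7 of 54 on III (13.0%, 6.25%), 6 of 59 on IV (10.2%, 1.09%) and 2 of 33 on X (6.06%, 3.75%). All exact 95% intervals of the members overlapped, from 0.743 to 20.2 on X to 11.2 to 30.9 on II, so no difference between chromosomes is shown. An unbound member, Y24D9A.9 in rpl-7A, a gene of a large ribosomal subunit protein, stood out after its values were seen, with 135.8 in replicate 2, at rank 104 of that list, and 23.4 in replicate 1. The strongest region of the whole series there scored 53.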
